A study of Arabidopsis with 12 samples.

Results

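The expression of the Calvin cycle and of photorespiration was followed through 32 nuclear genes of Arabidopsis thaliana, 21 of the Calvin cycle and 11 of photorespiration, among 27655 genes in the deposited table. The genes were chosen by name as enzymes and regulators of these pathways, not by a limit on measured values, and the transcripts of each locus were added up. All 32 loci were in the table, and all 32 passed the filter for testing, which was 1 TPM or more in at least 3 libraries. TPM gives a transcript as its share of 1000000 transcripts of a library after correction for length, so levels of different genes can be set side by side.

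The RNA came from seedlings that carried the flu mutation and, in the double mutant, the toc33-1 allele as well, and 3 libraries were made for each of 4 groups. Flu toc33 light and flu light are seedlings of the double and the single mutant that spent 4 h in the dark and then 1 h in the light. Flu toc33 dark and flu dark are seedlings of these genotypes taken at the end of the 4 h of darkness. All grew in continuous light at 22 °C, to an age of 7 d by the sample labels and 6 d by the design text of the series, and the material is seedlings in the sample titles but leaf in the tissue field. FLU restrains the synthesis of chlorophyll precursors, and flu seedlings that return to light after darkness form singlet oxygen in their plastids. TOC33 is a receptor GTPase in the outer chloroplast membrane that takes up precursor proteins from the cytosol. No wild type and no toc33 single mutant were analysed here, so every group carries flu, and the lit groups were collected 1 h later than the dark groups, so light, singlet oxygen and time cannot be told apart. Light response below means lit against dark libraries of a genotype.

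In the Calvin cycle Rubisco fixes carbon dioxide on ribulose bisphosphate, the product is reduced to triose phosphate, and most of the triose phosphate goes back into ribulose bisphosphate. Rubisco also reacts with oxygen, and the phosphoglycolate that forms is salvaged by photorespiration, a path through chloroplast, peroxisome and mitochondrion that returns glycerate to the cycle. Nearly all enzymes of both pathways are encoded in the nucleus, and those that work in the chloroplast enter it through the import machinery to which TOC33 belongs.

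Every library sums to the same total by construction, so read depth is unknown here and counting error cannot be estimated. Libraries held 18533 to 19023 genes at or above 1 TPM, and across genes the log2 values of replicates correlated at 0.992 to 0.996. Flu dark replicate 3 stood apart from its group, and the median coefficient of variation of the 32 genes was 4.69% in flu dark, against 1.64% to 2.16% in the other groups. The targeted gene, TOC33 (AT1G02280), had 4.28, 3.88 and 3.76 TPM in flu toc33 light and 48.4, 48.2 and 49.4 TPM in flu toc33 dark, against 169, 173 and 173 TPM in flu light and 200.4, 194 and 215 TPM in flu dark. The files do not say which stretch of the gene the allele alters. Leaf mesophyll markers were present in all libraries: the 4 genes LHCB2.1, LHCB3, CA1 and LHCA3 summed to 4254 to 4349 TPM in flu toc33 light, 3466 to 3575 TPM in flu toc33 dark, against 4508 to 4711 TPM in flu light and 4868 to 5469 TPM in flu dark. Markers of other organs were present as well. The 6 root genes summed to 1384 to 1415 TPM in flu toc33 light, 1560.5 to 1613 TPM in flu toc33 dark, against 808 to 852 TPM in flu light and 1172 to 1372 TPM in flu dark, nearly all of it from PYK10, and RHD6 and COBL9 did not pass the filter. The 4 seed storage genes summed to 106 to 113 TPM in flu toc33 light, 183 to 769.5 TPM in flu toc33 dark, against 18.3 to 23.8 TPM in flu light and 64.8 to 70.9 TPM in flu dark, with SESA1 listed at 0 in 1 flu light library. In bulk RNA, fewer cells of a type and less RNA per cell cannot be told apart, and the part of these markers in the results below was not tested.

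The levels of these genes spanned a wide range, and the Rubisco small subunit genes led. RBCS1A was the most abundant of all genes in every group by its mean, with 13822 ± 249 TPM in flu toc33 light, 15347 ± 139.9 TPM in flu toc33 dark, 16158 ± 822 TPM in flu light and 16731 ± 598 TPM in flu dark (SD, n = 3). RBCS1B, RBCS3B, RBCS2B and RCA, which encodes Rubisco activase, took the next 4 places among the 32 genes in every group, and RBCS2B ranked 24 of all genes in flu toc33 light and 8 in flu toc33 dark, against 7 in flu light and 9 in flu dark. CP12-3, one of the genes for the small linker protein CP12, was the lowest, at 11.2 to 27.5 TPM over the 12 libraries. The median Calvin cycle gene stood at 1014 TPM in flu toc33 light, 1113 TPM in flu toc33 dark, 936 TPM in flu light and 970.0 TPM in flu dark. Photorespiration genes lay in a narrower band, with group means from 218 to 1520.5 TPM in flu toc33 light, 192 to 2173 TPM in flu toc33 dark, against 175 to 1709 TPM in flu light and 164 to 1782 TPM in flu dark. GGT1 and AGT1, the aminotransferases of the peroxisome, were among the highest of this band in every group, and GLDP2 and PGLP1 were among the lowest.

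**Figure D1:**
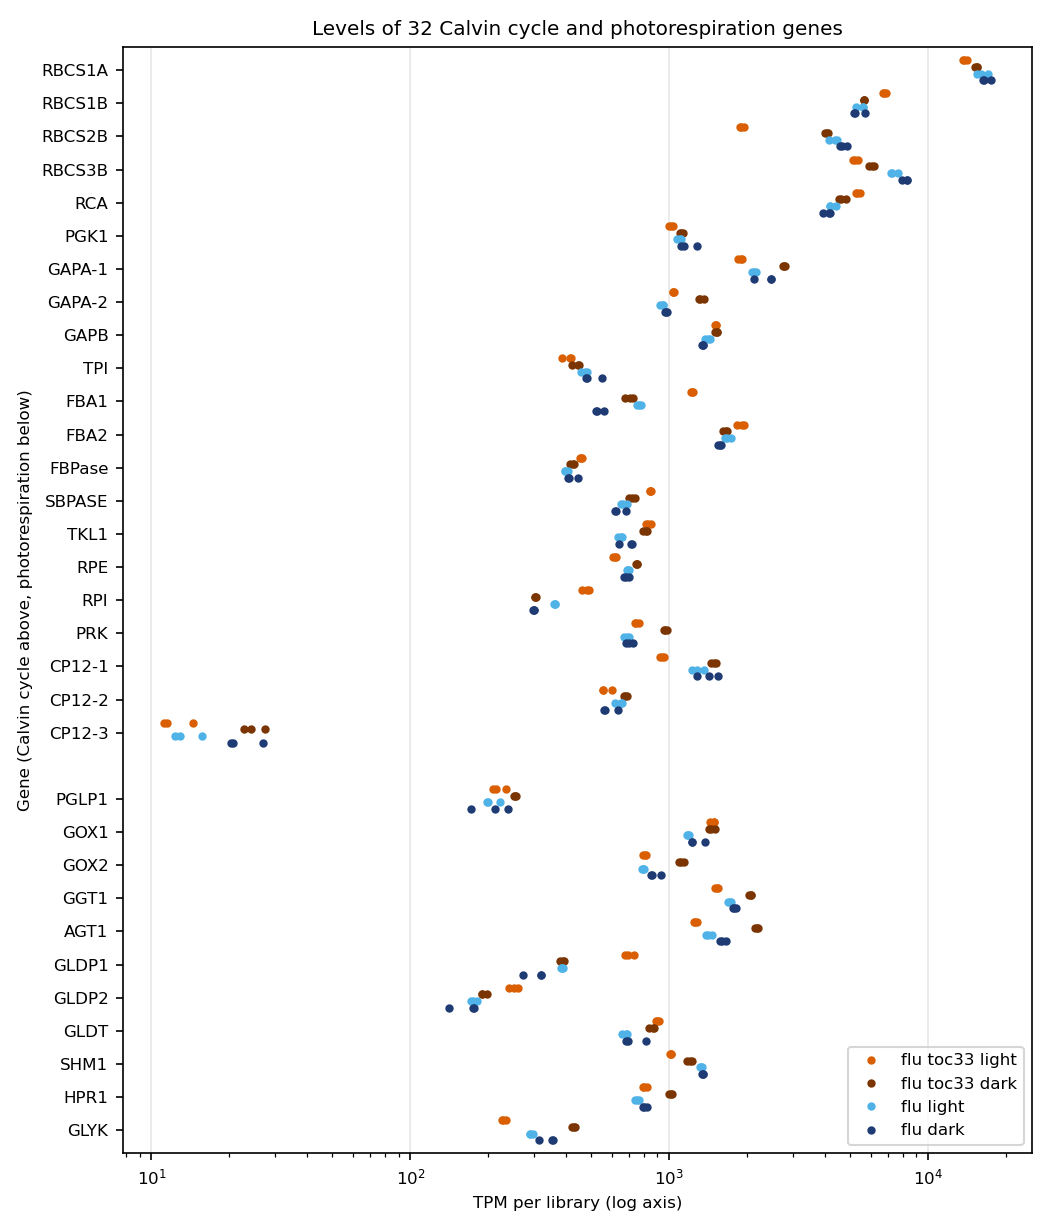
TPM of each of the 32 genes in each of the 12 libraries on a log axis, 3 points per group, with Calvin cycle genes above and photorespiration genes below. RBCS1A lies above all others in every group, CP12-3 below all others, and RBCS2B in flu toc33 light lies apart from the other groups.

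As sums, the transcripts of the Calvin cycle were lowest in flu toc33 light and those of photorespiration were highest in flu toc33 dark. The 21 Calvin cycle genes summed to 47987, 47367 and 47125 TPM in flu toc33 light, 50763, 52002 and 51444 TPM in flu toc33 dark, against 51781, 52707 and 49809 TPM in flu light and 52299, 52176 and 54184 TPM in flu dark. The flu toc33 light libraries lay below all others, and flu light overlapped with both dark groups. The RBCS genes carried most of this: they made up 58.3% ± 0.541 of the sum in flu toc33 light, 60.5% ± 0.179 in flu toc33 dark, 64.7% ± 0.379 in flu light and 66.0% ± 0.839 in flu dark (SD, n = 3). Without the RBCS genes the other 17 Calvin cycle genes summed to 19787 TPM in flu toc33 light, 20308 TPM in flu toc33 dark, 18128 TPM in flu light and 17980.3 TPM in flu dark, so that both flu toc33 groups lay above both flu groups.

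The 11 photorespiration genes summed to 9136, 9214 and 9144 TPM in flu toc33 light, 10931, 11297 and 11153 TPM in flu toc33 dark, against 8879, 8955 and 8889.7 TPM in flu light and 9366, 9357 and 9565 TPM in flu dark. None of these groups overlapped with another, but median-ratio scaling put flu toc33 light below flu light, at 8775 and 9200.0. Set against the Calvin cycle without RBCS, photorespiration transcripts amounted to 46.3% ± 0.313 in flu toc33 light and 54.8% ± 0.253 in flu toc33 dark, and to 49.2% ± 0.796 in flu light and 52.4% ± 0.856 in flu dark. This ratio was thus lower in lit than in dark libraries in both genotypes, with no overlap, and the gap was wider in flu toc33. With the RBCS genes included, the percentages were 19.3% ± 0.226 in flu toc33 light and 21.6% ± 0.0994 in flu toc33 dark. In flu they were 17.3% ± 0.456 in the light and 17.8% ± 0.156 in the dark, and these libraries overlapped. On that measure flu toc33 light lay above both flu groups, but without RBCS it lay below them. No p is given for these sums, since they are scores over chosen genes.

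**Figure D2:**
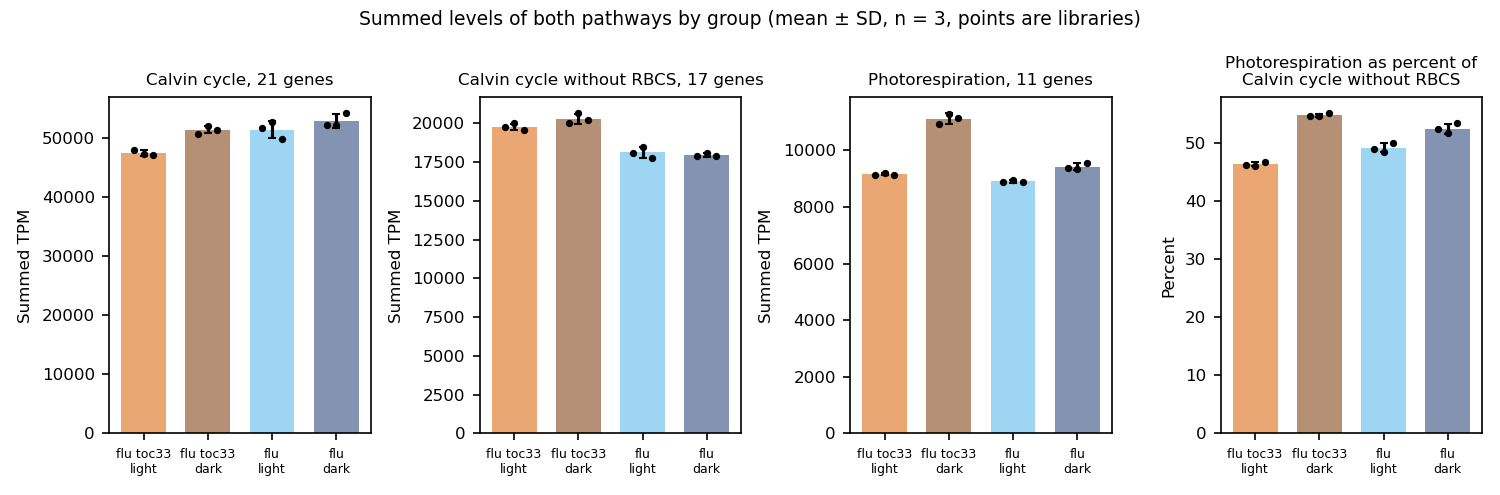
Summed TPM of the 21 Calvin cycle genes, of the 17 without RBCS and of the 11 photorespiration genes, and the last as a percent of the second, by group (bars are means, whiskers SD, points the 3 libraries). The photorespiration sum is highest in flu toc33 dark, and its ratio to the Calvin cycle without RBCS is lower in lit than in dark libraries of both genotypes.

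The first comparison asked what an hour of light changed in flu toc33. Most genes of both pathways were lower in the light: 7 of the 21 Calvin cycle genes rose, 11 fell and 3 had no call, and 2 of the 11 photorespiration genes rose, 7 fell and 2 had no call. Calls rest on an adjusted p below 0.05 in limma with Benjamini-Hochberg adjustment over the 19667 genes tested. The background was high, with 71% of all genes tested called, 40.4% higher and 30.6% lower. The lit and dark libraries did not overlap for 19 Calvin cycle and 10 photorespiration genes, as for 77.5% of all genes tested. The median log2 change was -0.13 for the Calvin cycle and -0.24 for photorespiration, against 0.072 for all genes tested. Replicates are not said to be separate cultures, so the p-values rest on a spread between libraries that may be technical.

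The step of carbon fixation split within a gene family. RBCS2B (AT5G38420) had 1940.2, 1897 and 1877 TPM in flu toc33 light, against 3987, 4108 and 4055 TPM in flu toc33 dark. All lit libraries lay under every dark library, and the log2 change on the scale of log2(TPM + 1), used for all changes here, was -1.09 ± 0.0342 (SE; limma, adjusted p = 2.42e-12). RBCS1B (AT5G38430), which encodes the same subunit, rose, with 6854, 6724 and 6706 TPM in flu toc33 light against 5647, 5658 and 5637 TPM in flu toc33 dark. Its groups did not overlap, and the log2 change was 0.26 ± 0.0377 (SE; limma, adjusted p = 2.81e-05). RBCS1A (AT1G67090), with 14098, 13613 and 13757 TPM in flu toc33 light against 15186, 15438 and 15418 TPM in flu toc33 dark, changed by -0.15 ± 0.0377 (SE; limma, adjusted p = 0.00262). RBCS3B (AT5G38410) had 5339, 5124 and 5189 TPM in flu toc33 light against 5918, 6148 and 6083 TPM in flu toc33 dark and changed by -0.21 ± 0.0327 (SE; limma, adjusted p = 4.66e-05). Neither pair of groups overlapped. RCA (AT2G39730), whose product frees Rubisco of bound sugar phosphates, rose, with 5268, 5442 and 5288 TPM in flu toc33 light against 4521, 4806 and 4621 TPM in flu toc33 dark and a log2 change of 0.20 ± 0.034 (SE; limma, adjusted p = 0.000131).

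In the reduction step 3 of the 4 genes fell and none rose. GAPA-1 (AT3G26650), an A subunit of the chloroplast glyceraldehyde phosphate dehydrogenase, had 1847, 1912 and 1899 TPM in flu toc33 light against 2742, 2791 and 2775 TPM in flu toc33 dark, a log2 change of -0.55 ± 0.0481 (SE; limma, adjusted p = 1.48e-07). GAPA-2, its second gene, fell by 0.36, and PGK1, the phosphoglycerate kinase before it, fell by 0.13. GAPB, which encodes the B subunit of the same dehydrogenase, had 1509, 1507 and 1514 TPM in flu toc33 light against 1499, 1531 and 1522 TPM in flu toc33 dark, and these groups overlapped. Its log2 change was -0.0065 (95% interval -0.061 to 0.048) and was 0.15 under quantile normalization.

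In the regeneration of ribulose bisphosphate 5 of 9 genes were higher, 2 lower and 2 not called, where 40.4% of all genes tested were higher. FBA1 (AT2G21330), a plastid aldolase, showed the largest rise among Calvin cycle genes, with 1235, 1226 and 1211 TPM in flu toc33 light against 674, 723 and 702 TPM in flu toc33 dark and a log2 change of 0.81 ± 0.0347 (SE; limma, adjusted p = 7.41e-11). RPI (AT3G04790), a plastid ribose phosphate isomerase, had 489, 483 and 462 TPM in flu toc33 light against 307, 302 and 304 TPM in flu toc33 dark, a log2 change of 0.65 ± 0.0282 (SE; limma, adjusted p = 8.32e-11). For both genes every lit library lay above every dark library. SBPASE, the sedoheptulose bisphosphatase special to this cycle, rose by 0.23, FBA2, the second aldolase, by 0.20, and FBPase, the plastid fructose bisphosphatase, by 0.11. PRK, the phosphoribulokinase that makes the acceptor of carbon dioxide, fell by 0.36, and RPE, the epimerase before it, fell by 0.28. TKL1, a transketolase, changed by 0.039 (95% interval -0.050 to 0.13) and TPI, the triose phosphate isomerase, by -0.11 (95% interval -0.22 to -0.0046), and neither was called.

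All 3 genes of CP12, a protein that ties PRK and the dehydrogenase into an inactive complex in the dark, fell in flu toc33. CP12-3 (AT1G76560) had 14.5, 11.2 and 11.4 TPM in flu toc33 light against 24.2, 27.5 and 22.8 TPM in flu toc33 dark, a log2 change of -0.96 ± 0.125 (SE; limma, adjusted p = 9.97e-06). CP12-1 (AT2G47400) had 955, 933 and 918 TPM in flu toc33 light against 1511, 1486 and 1447 TPM in flu toc33 dark, a log2 change of -0.66 ± 0.0556 (SE; limma, adjusted p = 1.05e-07). CP12-2 fell by 0.25. None of these pairs of groups overlapped.

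In photorespiration the 2 genes of the chloroplast and 4 of the 5 of the peroxisome fell, while the largest change in the mitochondrion was a rise. GLYK (AT1G80380), the glycerate kinase that closes the path, had 226, 228 and 234 TPM in flu toc33 light against 420.4, 434 and 427 TPM in flu toc33 dark, a log2 change of -0.90 ± 0.0424 (SE; limma, adjusted p = 2.08e-10). AGT1 (AT2G13360), the serine glyoxylate aminotransferase, had 1279, 1248 and 1261 TPM in flu toc33 light against 2141, 2205 and 2173 TPM in flu toc33 dark, a log2 change of -0.78 ± 0.0296 (SE; limma, adjusted p = 1.76e-11). GOX2 (AT3G14415), a glycolate oxidase, had 808, 792 and 810.1 TPM in flu toc33 light against 1088, 1139.9 and 1111 TPM in flu toc33 dark, a log2 change of -0.47 ± 0.0337 (SE; limma, adjusted p = 1.95e-08). In all 3 genes the lit libraries lay below the dark ones without overlap. GGT1, the glutamate glyoxylate aminotransferase, fell by 0.43, HPR1, the peroxisomal hydroxypyruvate reductase, by 0.33, and PGLP1, the phosphoglycolate phosphatase of the first step, by 0.21. GOX1, the second glycolate oxidase gene, had 1483, 1481 and 1436 TPM in flu toc33 light against 1427, 1497 and 1452 TPM in flu toc33 dark, which overlapped, with a log2 change of 0.0082 (95% interval -0.080 to 0.096).

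In the mitochondrion glycine decarboxylase and serine hydroxymethyltransferase turn glycine into serine. GLDP1 (AT4G33010), a P protein of the decarboxylase, had 675, 728 and 693 TPM in flu toc33 light against 379, 392 and 389 TPM in flu toc33 dark, a log2 change of 0.85 ± 0.0514 (SE; limma, adjusted p = 2.95e-09). GLDP2 (AT2G26080), the second P protein, had 239, 261 and 252 TPM in flu toc33 light against 188, 197 and 189.7 TPM in flu toc33 dark, a log2 change of 0.38 ± 0.0681 (SE; limma, adjusted p = 0.000176). Both were higher in every lit library, and of the 11 photorespiration genes they were the only ones called higher. SHM1, the hydroxymethyltransferase, fell by 0.24, and GLDT, the T protein, was not called at 0.065 (95% interval -0.048 to 0.18).

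The flu toc33 light and flu toc33 dark libraries also differed in the targeted gene itself, TOC33, by -3.32 (limma, adjusted p = 9.08e-16), and its part in the light response of flu toc33 and in its difference from flu was not tested. Markers moved as well: the seed storage genes, 4 of 4, were lower in flu toc33 light than in flu toc33 dark, and of the mesophyll markers LHCB3 was higher by 1.53. All 3 epidermis genes were higher, with sums of 703 to 745 TPM in flu toc33 light against 480.0 to 488 TPM in flu toc33 dark, and of the 4 vascular genes SUC2 (-0.75) and APL (-0.39) were lower and XCP1 (0.40) was higher. The calls of PGLP1, PGK1 and FBPase were the least firm: PGLP1 lost its call without any of flu toc33 light replicate 1 or 2 and flu toc33 dark replicate 1, 2 or 3 (-0.22 to -0.18), and without flu light replicate 2 or 3 or flu dark replicate 2 (-0.21 each), PGK1 without flu toc33 light replicate 3 (-0.12), and FBPase without flu toc33 dark replicate 1 (0.093) and under quantile normalization (0.013) or median-ratio scaling (0.034). TPI was called without flu toc33 dark replicate 1 (-0.14) or flu dark replicate 3 (-0.11), and GLDT without flu dark replicate 3 (0.065). Quantile normalization also ended the calls of RBCS1A (0) and RBCS3B (-0.095) and gave 4 photorespiration genes higher and 7 lower. It sets the top ranks of all libraries to the same values, so the 0 of RBCS1A, the most abundant gene, says nothing on its change.

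**Figure D3:**
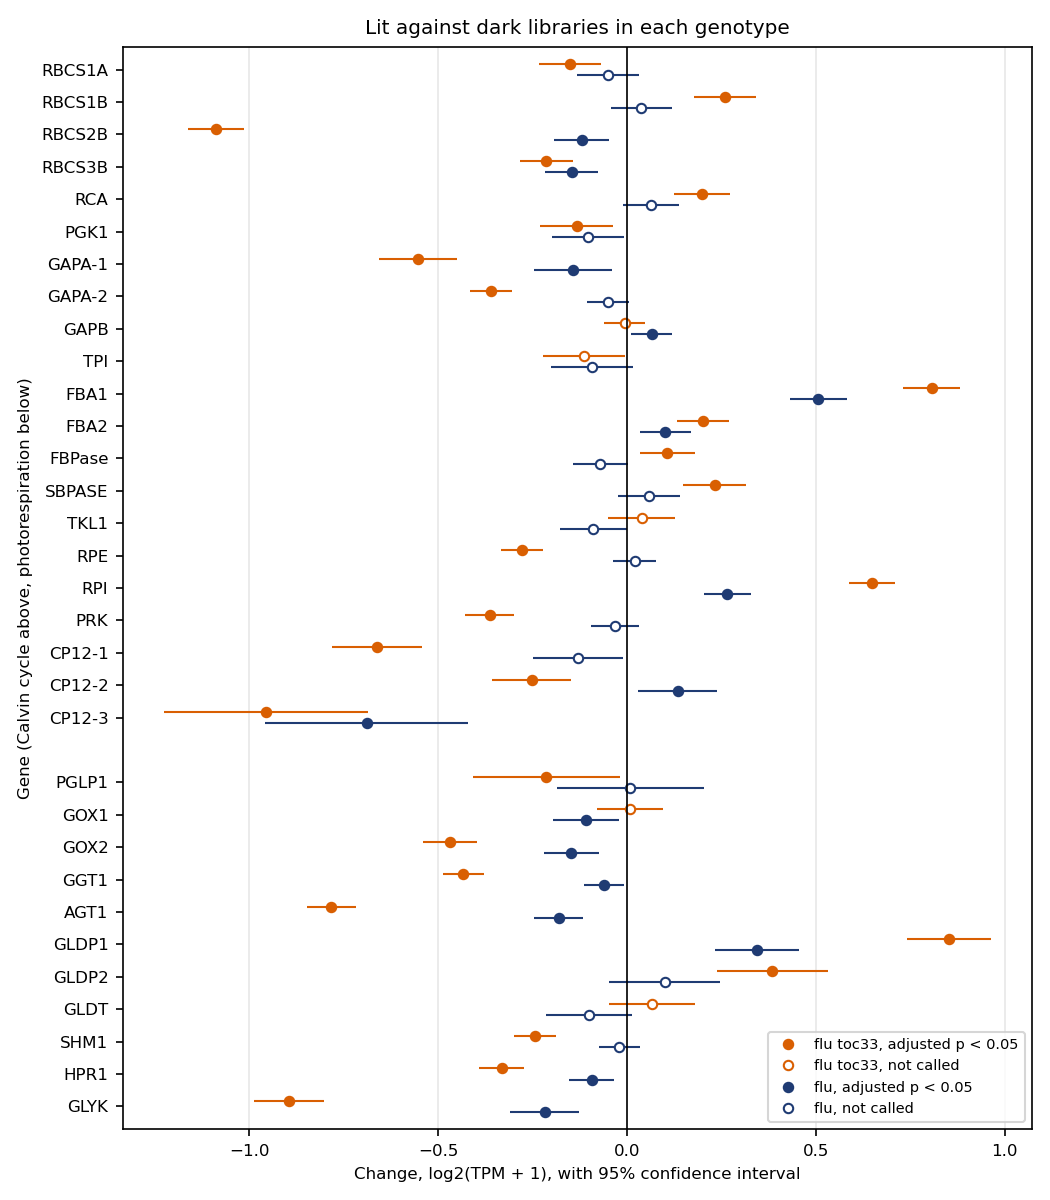
Log2 change of lit against dark libraries for each gene in flu toc33 and in flu, with 95% intervals; filled points passed an adjusted p of 0.05 in limma. RBCS2B, CP12-1, AGT1 and GLYK lie far to the left in flu toc33 and nearer to 0 in flu, while FBA1, RPI and GLDP1 lie to the right in both.

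The second comparison asked the same of flu, and the changes were small. In the Calvin cycle 5 of 21 genes rose, 4 fell and 12 had no call, and in photorespiration 1 of 11 rose, 6 fell and 4 had no call, while 61.6% of all genes tested were called, 28.2% higher and 33.4% lower. Lit and dark libraries did not overlap for 10 Calvin cycle and 8 photorespiration genes, as for 63.6% of all genes tested. The medians were -0.051 for the Calvin cycle and -0.094 for photorespiration, against -0.037 for all genes tested. The split of the calls depended on the scaling: quantile normalization gave 9 Calvin cycle genes higher and 2 lower and 3 photorespiration genes higher and 2 lower, and median-ratio scaling gave 4 and 2 in the Calvin cycle and 2 and 2 in photorespiration.

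FBA1 again rose most among Calvin cycle genes, with 762, 776 and 748 TPM in flu light against 522, 526 and 561 TPM in flu dark and a log2 change of 0.51 ± 0.0347 (SE; limma, adjusted p = 1.7e-08). RPI had 359, 361 and 363 TPM in flu light against 301, 298 and 301 TPM in flu dark, a log2 change of 0.27 ± 0.0282 (SE; limma, adjusted p = 1.84e-06). FBA2 rose by 0.10 and GAPB by 0.065. CP12-3 fell, with 12.3, 12.9 and 15.7 TPM in flu light against 20.6, 20.3 and 27.1 TPM in flu dark, a log2 change of -0.69 ± 0.125 (SE; limma, adjusted p = 0.000278). CP12-2, by contrast, had 654, 653 and 616 TPM in flu light against 557, 563 and 635 TPM in flu dark, which overlapped, with a log2 change of 0.13 ± 0.0484 (SE; limma, adjusted p = 0.0279). CP12-1 was not called at -0.13 (95% interval -0.25 to -0.0097).

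The RBCS genes moved little. RBCS2B had 4435, 4355 and 4121 TPM in flu light against 4546, 4628 and 4861 TPM in flu dark, a log2 change of -0.12 ± 0.0342 (SE; limma, adjusted p = 0.00759) that was 0.076 under quantile normalization. RBCS3B had 7643, 7209.5 and 7244 TPM in flu light against 8262, 7898 and 8307 TPM in flu dark, a log2 change of -0.15 ± 0.0327 (SE; limma, adjusted p = 0.00143) that was 0.21 under quantile normalization. Neither pair of groups overlapped. RBCS1A, with 16010.4, 17044 and 15419 TPM in flu light against 16437, 16337 and 17419.5 TPM in flu dark, RBCS1B, with 5573, 5612 and 5249.8 TPM in flu light against 5149, 5201 and 5672 TPM in flu dark, and RCA, with 4189.8, 4408 and 4171 TPM in flu light against 4123, 4159 and 3938 TPM in flu dark, were not called. The first and second of these pairs overlapped, and the RCA groups did not. The interval of the log2 change was -0.13 to 0.030 for RBCS1A, -0.044 to 0.12 for RBCS1B and -0.010 to 0.14 for RCA. GAPA-1 fell, with 2155, 2128 and 2094 TPM in flu light against 2463, 2480.3 and 2119 TPM in flu dark, groups that overlapped through flu dark replicate 3, and a log2 change of -0.14 ± 0.0481 (SE; limma, adjusted p = 0.0193).

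Among the 11 photorespiration genes GLDP1 alone rose, with 387, 382 and 385 TPM in flu light against 319.5, 318 and 273 TPM in flu dark and a log2 change of 0.34 ± 0.0514 (SE; limma, adjusted p = 5.17e-05). GLYK fell, with 299, 289 and 290.5 TPM in flu light against 353, 355 and 314 TPM in flu dark and a log2 change of -0.22 ± 0.0424 (SE; limma, adjusted p = 0.000518). AGT1 had 1405, 1458 and 1387 TPM in flu light against 1566, 1603 and 1652 TPM in flu dark, a log2 change of -0.18 ± 0.0296 (SE; limma, adjusted p = 0.000113). GOX2 had 790.0, 799 and 787 TPM in flu light against 860.4, 849 and 925 TPM in flu dark, a log2 change of -0.15 ± 0.0337 (SE; limma, adjusted p = 0.00174). The groups of these 4 genes did not overlap. All 5 peroxisomal genes were called lower, GOX1 at -0.11, HPR1 at -0.094 and GGT1 at -0.061 being the others, but under quantile normalization GOX1 stood at 0.0040, HPR1 at 0.0035 and GGT1 at 0.15. SHM1 was not called at -0.020 and PGLP1 not at 0.0082.

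Calls of small changes in flu were often lost without a single library. GGT1 and GAPB were near the threshold (limma, adjusted p = 0.0485 and 0.04) and lost their calls without almost any library (-0.068 to -0.050 and 0.048 to 0.068). Leaving out any flu toc33 library did so too, although those libraries are not part of this change. Calls were also lost by GOX1 without flu light replicate 1, 2 or 3 (-0.12 to -0.10) or flu dark replicate 3 (-0.053), CP12-2 without flu light or flu dark replicates 1 or 2 (0.10 to 0.12), GAPA-1 without flu light replicate 3 or flu dark replicate 1 or 2 (-0.13 to -0.10), and FBA2 without flu light replicate 2 (0.080). Without flu dark replicate 3, GAPA-1 stood at -0.22 and calls were gained by RBCS1B (0.082), SBPASE (0.10) and TKL1 (-0.14), which gave 12 Calvin cycle genes called, 7 higher and 5 lower, and 6 photorespiration genes. Calls were gained without flu light replicate 2 by RBCS1A (-0.090) and CP12-1 (-0.17), without flu dark replicate 1 by PGK1 (-0.14), CP12-1 (-0.20) and GLDT (-0.15), and without flu dark replicate 2 by PGK1 (-0.13) and FBPase (-0.093). Median-ratio scaling ended the calls of RBCS2B, RBCS3B, GOX1, GOX2, GGT1 and HPR1 (-0.11 to -0.027) and of CP12-2 (0.17). In the same libraries the 4 root markers tested, of 6, were all lower in flu light than in flu dark. Of the 4 mesophyll markers LHCA3 (-0.24), LHCB3 (-0.19) and CA1 (-0.098) were lower and LHCB2.1 (0.16) was higher. The seed genes CRU3 (-3.13) and CRA1 (-1.27), the vascular gene XCP1 (-0.70) and the guard cell gene KAT1 (-0.29) were lower. Of the epidermis genes PDF1 (-0.28) was lower and KCS10 (0.16) higher.

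The light responses of both genotypes were then set against each other. For 28 of the 32 genes the change was larger in size in flu toc33 than in flu, 19 of 21 in the Calvin cycle and 9 of 11 in photorespiration, as for 61.7% of all genes tested. Of the 14 genes called in both genotypes 13 had the same direction, each larger in flu toc33, and CP12-2 fell in flu toc33 and rose in flu. Of all genes called in both genotypes 86.4% had the same direction, and 56.7% had the same direction and were larger in flu toc33. The difference itself, tested as the interaction of light and genotype, was called for 13 Calvin cycle genes, 6 higher and 7 lower in flu toc33 relative to flu, and for 8 photorespiration genes, 2 higher and 6 lower, where 56.7% of all genes tested were called, 31.6% higher and 25.1% lower. The medians were -0.066 for the 21 Calvin cycle genes and -0.22 for the 11 photorespiration genes, against 0.065 for all genes tested. The downward shift did not extend to the further photorespiratory lists described below, which shifted upward. Among 14 other photorespiratory enzymes the median difference was 0.34, and 11 genes were called higher and 1 lower. Among 7 genes for nitrogen recycling and transport the median difference was 0.33, and 5 genes were called higher and none lower.

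Among the 32 genes RBCS2B differed most, by -0.97 ± 0.0484 on the log2 scale (SE; limma, adjusted p = 1.36e-09). Its light response was -1.09 in flu toc33 and -0.12 in flu. GLYK differed by -0.68 ± 0.06 (SE; limma, adjusted p = 4.63e-07), AGT1 by -0.60 ± 0.0418 (SE; limma, adjusted p = 3.92e-08), CP12-1 by -0.53 ± 0.0787 (SE; limma, adjusted p = 6.13e-05), GAPA-1 by -0.41 ± 0.068 (SE; limma, adjusted p = 0.000165) and GGT1 by -0.37 ± 0.0352 (SE; limma, adjusted p = 8.54e-07). On the upward side GLDP1 differed by 0.51 ± 0.0727 (SE; limma, adjusted p = 4.57e-05), RPI by 0.38 ± 0.0399 (SE; limma, adjusted p = 2.28e-06), FBA1 by 0.30 ± 0.0491 (SE; limma, adjusted p = 0.00015), GLDP2 by 0.28 ± 0.0962 (SE; limma, adjusted p = 0.0224) and RBCS1B by 0.22 ± 0.0533 (SE; limma, adjusted p = 0.00287). No difference was called for RBCS1A (95% interval -0.22 to 0.015), RBCS3B (-0.17 to 0.034), PGK1, GAPB, TPI, FBA2, TKL1 or CP12-3 in the Calvin cycle, nor for PGLP1, GOX1 or GLDT in photorespiration.

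Markers differed in the same term: all 4 root genes tested were higher, with a median of 0.99, as were the epidermis genes PDF1 (0.81) and KCS10 (0.52) and the mesophyll gene LHCB3 (1.72), while of the 4 vascular genes SUC2 (-0.74) and APL (-0.28) were lower and XCP1 (1.09) was higher. Of the 4 seed genes 1 was higher and 2 lower, and TOC33 differed by -3.08.

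Without flu dark replicate 3 the Calvin cycle count was 18, with 8 higher and 10 lower; calls were gained by RBCS1A (-0.13), PGK1 (-0.095), FBA2 (0.11), TKL1 (0.18) and CP12-3 (-0.40). RBCS1A gained one without flu light replicate 3 as well (-0.13), and FBA2 without flu toc33 light replicate 3 (0.13) or flu light replicate 2 (0.12). The RCA difference lost its call without flu toc33 light replicate 2, flu toc33 dark replicate 1 or 3, flu light replicate 1 or 3 or flu dark replicate 1 or 2 (0.11 to 0.13), and GLDP2 without flu toc33 light replicate 2, flu light replicate 1 or flu dark replicate 1 or 2 (0.23 to 0.27), while PGLP1 gained one without flu dark replicate 1 (-0.33), GOX1 likewise (0.15) and GLDT without flu dark replicate 1 or 2 (0.21 and 0.20). Quantile normalization gave 4 Calvin cycle genes higher and 8 lower, and median-ratio scaling gave 2 and 8 there and 1 and 7 in photorespiration, ending the calls of RBCS1B (0.12), RCA (0.028), FBPase (0.071), SBPASE (0.068) and GLDP2 (0.18).

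The third comparison asked what toc33-1 changed before the light came on. In the dark 10 of the 11 photorespiration genes were higher in flu toc33 than in flu, with SHM1 as the exception, and 10 of the 21 Calvin cycle genes were higher, 4 lower and 7 not called. Over all genes tested 41.4% were called, 20.9% higher and 20.5% lower. The flu toc33 and flu libraries did not overlap for all 11 photorespiration and for 16 Calvin cycle genes, as for 49.5% of all genes tested. The medians were 0.30 for photorespiration and 0.13 for the Calvin cycle, against 0.012 for all genes tested. The rise did not extend to the further lists described below. Of 14 other photorespiratory enzymes 2 were higher, 3 lower and 9 not called, with a median of -0.12. Of 7 genes for photorespiratory nitrogen recycling and transport 1 was higher, 2 were lower and 4 not called, with a median of 0.021. Quantile normalization gave 12 Calvin cycle genes higher and 2 lower, and ended the calls of RPE (0.074), PGLP1 (0.24) and SHM1 (-0.067).

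AGT1 was raised most in photorespiration, with 2141, 2205 and 2173 TPM in flu toc33 dark against 1566, 1603 and 1652 TPM in flu dark and a log2 change of 0.44 ± 0.0296 (SE; limma, adjusted p = 8.59e-08). GLDP1, at 379, 392 and 389 TPM in flu toc33 dark against 319.5, 318 and 273 TPM in flu dark, rose by 0.35 ± 0.0514 (SE; limma, adjusted p = 0.000104). GOX2, at 1088, 1139.9 and 1111 TPM in flu toc33 dark against 860.4, 849 and 925 TPM in flu dark, rose by 0.34 ± 0.0337 (SE; limma, adjusted p = 3e-06). In each case every flu toc33 library lay above every flu library. HPR1 rose by 0.34, GLYK by 0.33, PGLP1 by 0.30, GLDT by 0.24, GLDP2 by 0.23, GGT1 by 0.20 and GOX1 by 0.20. SHM1 (AT4G37930) fell, with 1169, 1225 and 1203 TPM in flu toc33 dark against 1347, 1345 and 1340.2 TPM in flu dark and a log2 change of -0.17 ± 0.0255 (SE; limma, adjusted p = 0.000161).

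In the Calvin cycle the rises in the dark included PRK (AT1G32060), with 953, 976 and 961 TPM in flu toc33 dark against 722, 699.6 and 683 TPM in flu dark and a log2 change of 0.46 ± 0.0296 (SE; limma, adjusted p = 5.57e-08). GAPA-2 (AT1G12900) had 1306, 1361 and 1319 TPM in flu toc33 dark against 965, 977 and 968 TPM in flu dark, a log2 change of 0.45 ± 0.0257 (SE; limma, adjusted p = 1.59e-08). FBA1 had 674, 723 and 702 TPM in flu toc33 dark against 522, 526 and 561 TPM in flu dark, a log2 change of 0.38 ± 0.0347 (SE; limma, adjusted p = 1.41e-06). None of these groups overlapped. GAPA-1, TKL1, CP12-2, RCA, GAPB, SBPASE and RPE rose by 0.13 to 0.24.

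The RBCS genes stood on the other side. RBCS3B had 5918, 6148 and 6083 TPM in flu toc33 dark against 8262, 7898 and 8307 TPM in flu dark, a log2 change of -0.43 ± 0.0327 (SE; limma, adjusted p = 2.5e-07). RBCS2B changed by -0.21 ± 0.0342 (SE; limma, adjusted p = 0.000278) and RBCS1A by -0.12 ± 0.0377 (SE; limma, adjusted p = 0.0176), without overlap, whereas RBCS1B was not called at 0.082 and overlapped. Under quantile normalization, which sets the top ranks of all libraries to the same values, RBCS2B stood at 0.079, RBCS1A at 0.15 and RBCS3B at 0. TPI fell as well, with 422, 449 and 444 TPM in flu toc33 dark against 479, 482 and 548 TPM in flu dark and a log2 change of -0.20 ± 0.0502 (SE; limma, adjusted p = 0.0069).

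Beside these changes, the seed storage genes were higher in flu toc33 dark than in flu dark, 4 of 4, as were 3 of the 4 root genes tested, NRT1.5 (0.69), PRP3 (0.55) and PYK10 (0.29), and the epidermis genes ATML1 (0.47) and KCS10 (0.18), while 3 of the 4 mesophyll markers were lower, LHCB3 by -1.45. RBCS1A lost its call without flu toc33 dark replicate 1 (-0.12) and under median-ratio scaling (-0.13), and GLDP2 without flu toc33 dark replicate 2 (0.21), while without flu dark replicate 3 PGLP1 stood at 0.17, GLDP2 at 0.12, and RBCS1B (0.13) and CP12-1 (0.14) gained calls.

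The fourth comparison asked the same in the light. Of the Calvin cycle genes 11 were higher in flu toc33 than in flu, 9 lower and 1 not called, and of the photorespiration genes 5 were higher, 4 lower and 2 not called, where 66.8% of all genes tested were called, 39% higher and 27.9% lower. Here the groups did not overlap for 20 Calvin cycle and 9 photorespiration genes, as for 74% of all genes tested. The medians were 0.10 for the Calvin cycle and 0.078 for photorespiration, against 0.077 for all genes tested. Median-ratio scaling gave 6 Calvin cycle genes higher and 9 lower, and quantile normalization gave 4 photorespiration genes higher and 5 lower.

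RBCS2B was the gene most changed, with 1940.2, 1897 and 1877 TPM in flu toc33 light against 4435, 4355 and 4121 TPM in flu light and a log2 change of -1.18 ± 0.0342 (SE; limma, adjusted p = 2.38e-12). RBCS3B had 5339, 5124 and 5189 TPM in flu toc33 light against 7643, 7209.5 and 7244 TPM in flu light, a log2 change of -0.50 ± 0.0327 (SE; limma, adjusted p = 1.15e-08). RBCS1A changed by -0.22 ± 0.0377 (SE; limma, adjusted p = 0.000131), and RBCS1B by 0.30 ± 0.0377 (SE; limma, adjusted p = 7.82e-06), so 3 of the 4 genes were lower and 1 was higher, none with overlap. RCA was higher by 0.33 ± 0.034 (SE; limma, adjusted p = 1.41e-06). CP12-1, with 955, 933 and 918 TPM in flu toc33 light against 1282, 1359 and 1225 TPM in flu light, changed by -0.46 ± 0.0556 (SE; limma, adjusted p = 6.07e-06).

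In regeneration 7 of the 9 genes were higher and 2 lower. FBA1 had 1235, 1226 and 1211 TPM in flu toc33 light against 762, 776 and 748 TPM in flu light, a log2 change of 0.68 ± 0.0347 (SE; limma, adjusted p = 7.61e-10). RPI had 489, 483 and 462 TPM in flu toc33 light against 359, 361 and 363 TPM in flu light, a log2 change of 0.40 ± 0.0282 (SE; limma, adjusted p = 2.29e-08). TKL1 (AT3G60750) had 811, 846 and 828 TPM in flu toc33 light against 634, 657 and 650.4 TPM in flu light, a log2 change of 0.36 ± 0.0412 (SE; limma, adjusted p = 4.11e-06). SBPASE was higher by 0.34, and TPI and RPE were lower at -0.21 and -0.16.

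Photorespiration genes split in the light, also within an organelle. The glycine decarboxylase genes were higher: GLDP1 had 675, 728 and 693 TPM in flu toc33 light against 387, 382 and 385 TPM in flu light, a log2 change of 0.86 ± 0.0514 (SE; limma, adjusted p = 4.25e-09). GLDP2 had 239, 261 and 252 TPM in flu toc33 light against 171, 174 and 181 TPM in flu light, a log2 change of 0.51 ± 0.0681 (SE; limma, adjusted p = 1.52e-05). GLDT (AT1G11860) had 909.6, 887 and 896 TPM in flu toc33 light against 659, 679.6 and 689 TPM in flu light, a log2 change of 0.41 ± 0.0526 (SE; limma, adjusted p = 1.12e-05). SHM1, which works beside them, was lower, with 1013, 1017 and 1007 TPM in flu toc33 light against 1312, 1328 and 1336 TPM in flu light and a log2 change of -0.39 ± 0.0255 (SE; limma, adjusted p = 1.12e-08). GLYK had 226, 228 and 234 TPM in flu toc33 light against 299, 289 and 290.5 TPM in flu light, a log2 change of -0.35 ± 0.0424 (SE; limma, adjusted p = 6.1e-06). GGT1 (AT1G23310) had 1498, 1541 and 1523 TPM in flu toc33 light against 1713, 1691 and 1723 TPM in flu light, a log2 change of -0.17 ± 0.0249 (SE; limma, adjusted p = 4.09e-05). In all 6 genes the groups did not overlap. AGT1 was lower by -0.17 and GOX1 higher by 0.31, while GOX2 and PGLP1 were not called. The dark and light comparisons used different libraries, and GLYK, GGT1 and AGT1 were higher in flu toc33 in the dark and lower in the light. So were GAPA-1 (0.24 in the dark and -0.17 in the light), RPE (0.13 and -0.16) and CP12-2 (0.21 and -0.17) in the Calvin cycle.

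PGK1, lower by -0.11, lost its call without any one of the flu toc33 light, flu toc33 dark or flu light libraries (-0.12 to -0.096). GAPB and HPR1, each at 0.10, stood at -0.0094 and -0.011 under median-ratio scaling, which also ended the calls of GAPA-2 (0.033), FBA2 (0.060), FBPase (0.079) and PRK (0.015). Quantile normalization ended those of RBCS1A (0), GAPA-1 (-0.083) and AGT1 (-0.054). The 0 of RBCS1A again follows from its top rank in both groups and says nothing on its change. Beside these changes the 4 seed genes, the 4 root genes tested and the 3 epidermis genes, ATML1, PDF1 and KCS10, were all higher in flu toc33 light than in flu light, the epidermis genes summing to 725 TPM in flu toc33 light and 442 TPM in flu light. The other marker lists split. LHCA3 (-0.52) was lower and LHCB3 (0.27) higher in the mesophyll list. In the vascular list SUC2 (-0.53) and APL (-0.22) were lower and XCP1 (0.25) higher. Among guard cell genes FAMA (-0.25) and MYB60 (-0.18) were lower and KAT1 (0.60) higher.

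**Figure D4:**
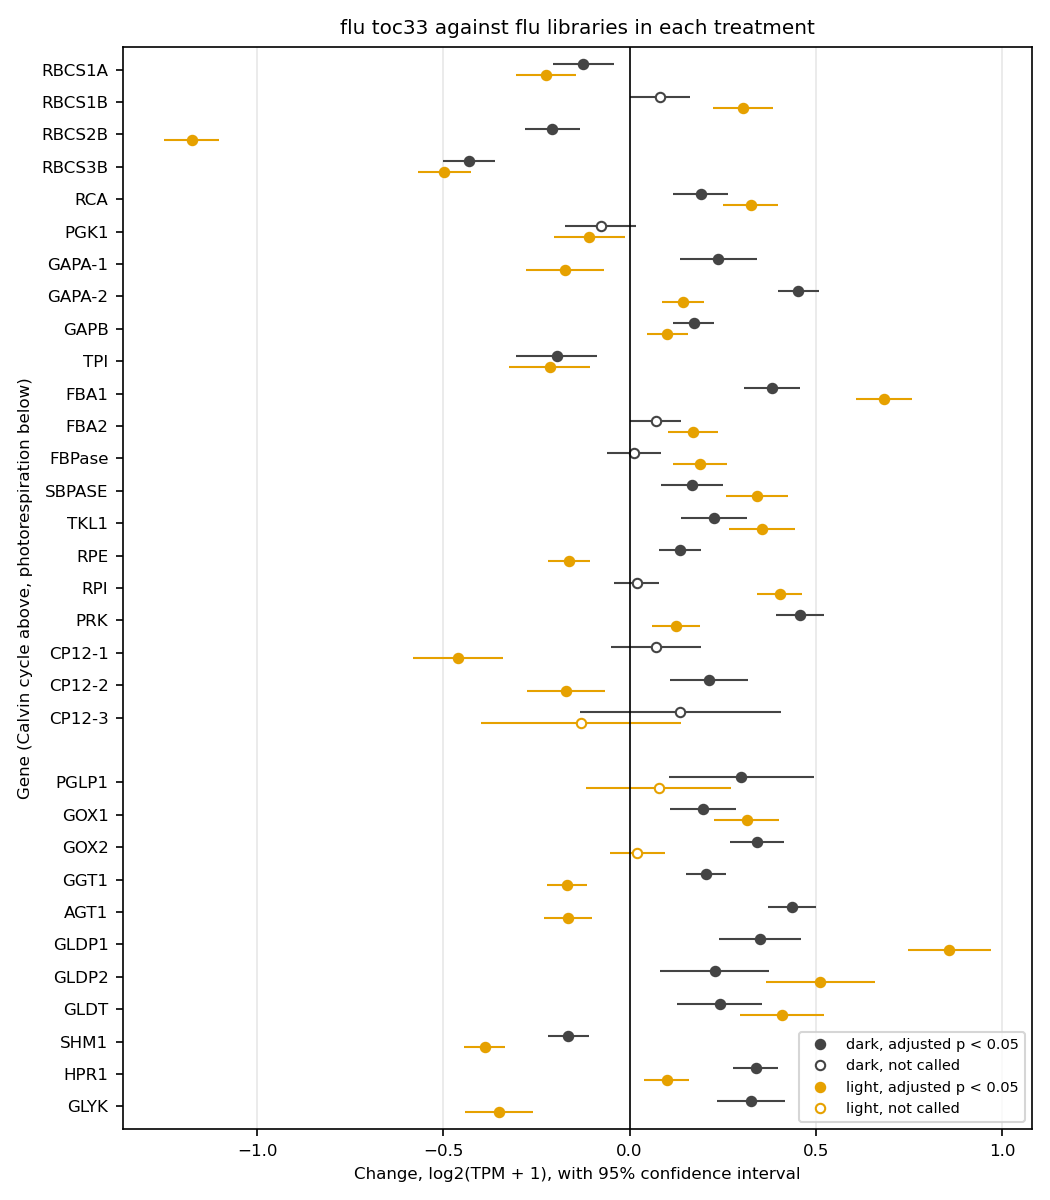
Log2 change of flu toc33 against flu libraries for each gene in the dark and in the light, with 95% intervals; filled points passed an adjusted p of 0.05 in limma. In photorespiration all dark points but SHM1 lie right of 0, and the light points of GLYK, GGT1 and AGT1 lie left of it.

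Genes that encode the same subunit did not keep their proportions. RBCS2B made up 6.87% of RBCS transcripts in flu toc33 light, against 13.0% in flu toc33 dark, 12.9% in flu light and 13.4% in flu dark. RBCS1B made up 24.4% in flu toc33 light, 18.2% in flu toc33 dark, 16.4% in flu light and 15.3% in flu dark, and RBCS3B made up 18.8% in flu toc33 light, 19.5% in flu toc33 dark, 22.1% in flu light and 23.4% in flu dark. RBCS1A held 47.9% to 49.9% in all groups. The loci RBCS3B, RBCS2B and RBCS1B are next to each other on the same chromosome in the RefSeq annotation of TAIR10.1, and in flu toc33 the first and second fell in the light while RBCS1B rose. GOX2 and GOX1 are neighbours too, and there GOX2 fell and GOX1 was not called. These RBCS genes are near-identical in sequence, and the estimate of TPM shares reads out between them, so the split between copies is less certain than the family total, which was 27706 TPM in flu toc33 light, 31095 TPM in flu toc33 dark, 33305 TPM in flu light and 34906 TPM in flu dark.

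Other pairs shifted too. FBA1 made up 38.7% to 39.9% of the transcripts of FBA1 and FBA2 in flu toc33 light libraries against 29.4% to 30.3% in flu toc33 dark, and 30.9% to 31.4% in flu light against 24.9% to 26.7% in flu dark. GLDP1 made up 73.6% of the P protein transcripts in flu toc33 light against 66.9% in flu toc33 dark, and 68.7% in flu light against 65.0% in flu dark. GOX1 made up 64.6% of the glycolate oxidase pair in flu toc33 light against 56.7% in flu toc33 dark, and 59.8% in flu light against 59.2% in flu dark. PGLP1 has a near-identical second locus, and the first made up 64.2% of the pair in flu toc33 light, 71.2% in flu toc33 dark, 67.8% in flu light and 67.2% in flu dark, with an SD of 5.56 percentage points between flu dark libraries. The total of the pair was 340 TPM in flu toc33 light, 355 TPM in flu toc33 dark, 305 TPM in flu light and 307 TPM in flu dark. As with RBCS, the split is less certain than this total.

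**Figure D5:**
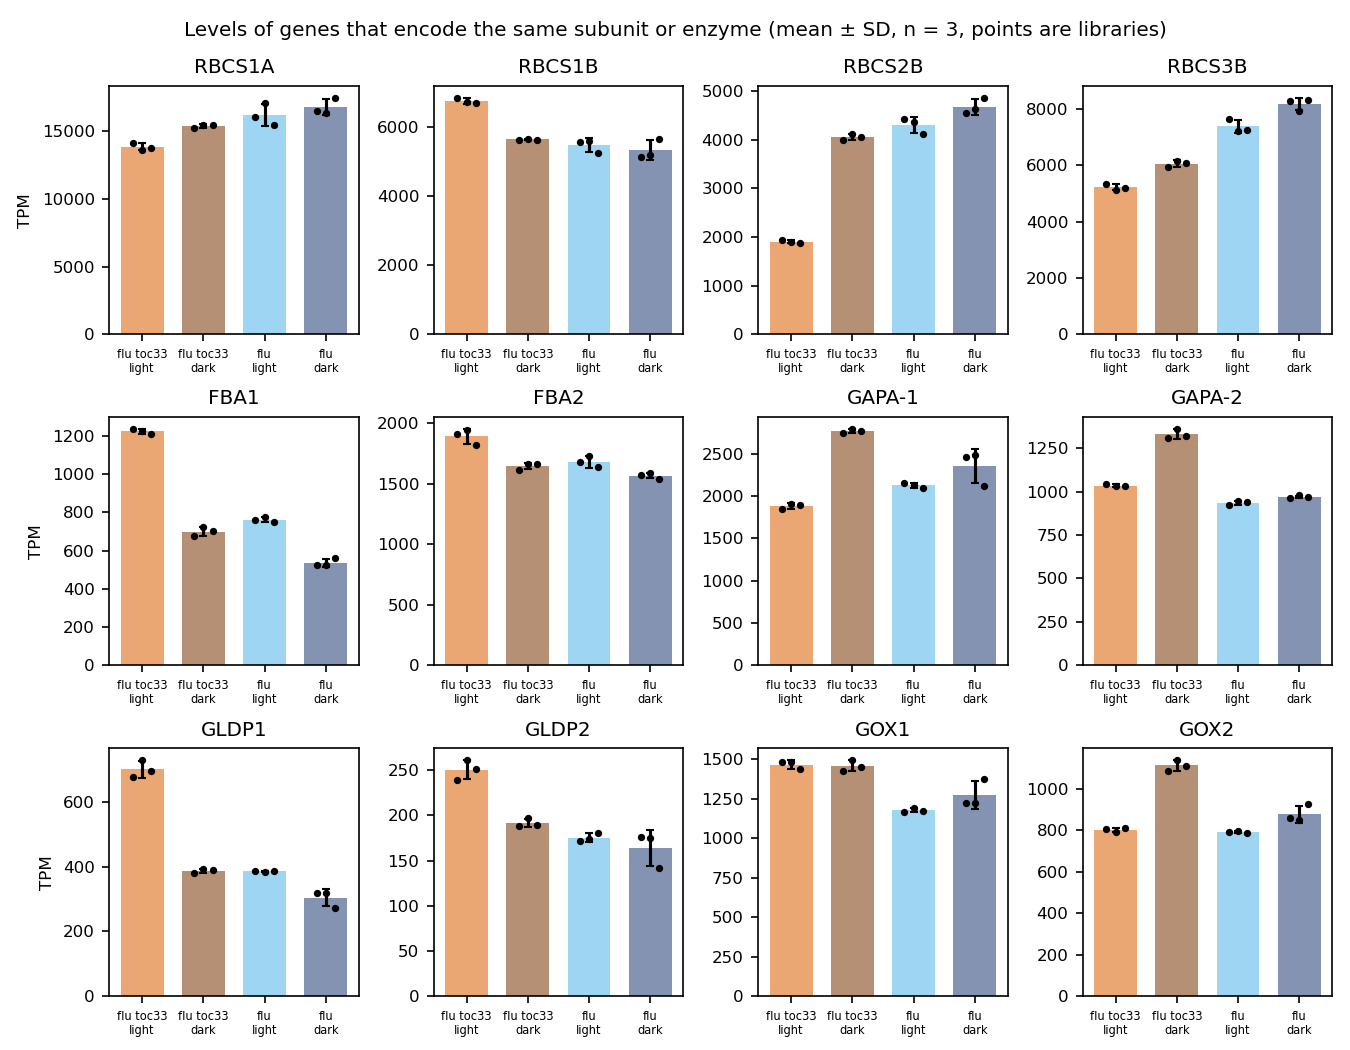
TPM of genes that encode the same subunit or enzyme, by group (bars are means, whiskers SD, points the 3 libraries), for RBCS, FBA, GAPA, GLDP and GOX. RBCS2B is lowest and RBCS1B highest in flu toc33 light, and FBA1 and GLDP1 are highest in flu toc33 light.

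The sums over loci hide some shifts between transcripts. For 9 of the 32 genes, RCA, FBA1, FBPase, TKL1, RPE, PGLP1, AGT1, GLDT and HPR1, at least 2 transcripts reached 10% of the locus in some group. Transcript AT2G21330.2 of FBA1 made up 15.2% ± 1.08 of the locus in flu toc33 light against 7.85% ± 0.302 in flu toc33 dark, and 17.7% ± 1.02 in flu light against 6.07% ± 0.458 in flu dark (SD, n = 3). Its log2 change in the light was 1.74 ± 0.0659 in flu toc33 (SE; limma over 28938 transcripts, adjusted p = 7.54e-10) and 2.02 ± 0.0659 in flu (SE; limma, adjusted p = 2.98e-10), against 0.81 in flu toc33 and 0.51 in flu for the locus. AT2G21330.3 made up 11.5% to 14.3% of the locus in flu toc33 light libraries against 18.5% to 20.7% in flu toc33 dark, and 3.91% to 11.8% in flu light against 9.50% to 24.0% in flu dark. Its share was thus lower in flu toc33 light without overlap and overlapped in flu, and the light response of this transcript was not called in flu toc33 (0.20; limma, adjusted p = 0.67) or in flu (-0.68; limma, adjusted p = 0.141). For RCA, AT2G39730.1 made up 43.2% ± 0.285 in flu toc33 light against 44.8% ± 0.244 in flu toc33 dark, and 47.8% ± 0.223 in flu light against 49.6% ± 0.0945 in flu dark. AT2G39730.2 made up 51.0% in flu toc33 light, 52.1% in flu toc33 dark, 48.8% in flu light and 48.2% in flu dark. RCA gives a long and a short protein by alternative splicing, and the files do not say which transcript encodes which. AT2G39730.3, a minor transcript with a mean under 10% of the locus in every group, rose by 1.07 ± 0.053 in flu toc33 (SE; limma, adjusted p = 7.87e-09) and by 0.68 ± 0.053 in flu (SE; limma, adjusted p = 6.75e-07). The shares of the FBPase, TKL1, RPE, AGT1, GLDT, HPR1 and PGLP1 transcripts differed by 10 percentage points or less between any of the group means.

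Further genes of the same chemistry were taken from lists of related genes, and their counts stand against 71% of all genes tested called in the light response of flu toc33, 40.4% higher and 30.6% lower, and 61.6% in that of flu, 28.2% higher and 33.4% lower. Of the 7 genes for Rubisco assembly and maintenance 4 rose and 2 fell in the light in flu toc33, and 3 rose and 2 fell in flu. RBCX2, a Rubisco chaperone, rose by 0.63 in flu toc33 and by 0.56 in flu. RBCX1, its relative, had 23.8, 24.8 and 22.4 TPM in flu toc33 light against 67.6, 63.8 and 69.2 TPM in flu toc33 dark, a log2 change of -1.46 ± 0.0499 (SE; limma, adjusted p = 5.95e-12), and changed by -0.22 in flu. Of 4 other Calvin cycle enzymes 2 rose and 2 fell in flu toc33, with cpFBPase2, a second plastid fructose bisphosphatase, at -0.84, and 3 fell in flu, where cpFBPase2 changed by -0.50.

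Of 14 other photorespiratory enzymes 8 rose, 1 fell and 5 were not called in the light in flu toc33, and 3 rose, 4 fell and 7 were not called in flu, fewer calls for their number than over all genes tested. CAT2, the catalase that removes the hydrogen peroxide made by glycolate oxidase, had 1319, 1326 and 1315 TPM in flu toc33 light against 698, 724 and 724 TPM in flu toc33 dark, a log2 change of 0.88 ± 0.029 (SE; limma, adjusted p = 3.94e-12), and rose by 0.47 in flu. GGT2, the second glutamate glyoxylate aminotransferase gene and near-identical to GGT1, rose by 1.13 in flu toc33 and by 0.66 in flu, while GGT1 fell in both. SHM2, the second mitochondrial hydroxymethyltransferase gene, rose by 0.77 in flu toc33, where SHM1 fell. The levels differ widely, with GGT2 at 75.5 TPM and GGT1 at 1520.5 TPM in flu toc33 light. Of 7 genes for nitrogen recycling and transport 5 rose and none fell in flu toc33, among them DIT1, the oxoglutarate malate carrier of the chloroplast, by 0.97, BOU, a mitochondrial glutamate carrier, by 0.43 and PLGG1, the glycolate glycerate carrier, by 0.43.

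The cytosolic counterparts of Calvin cycle enzymes belong to glycolysis and gluconeogenesis. Of 8 such genes 6 rose, 1 fell and 1 was not called in the light in flu toc33, where 40.4% of all genes tested rose, and 5 rose, 1 fell and 2 were not called in flu, where 28.2% rose. PGK3, the cytosolic phosphoglycerate kinase, had 425, 421 and 421 TPM in flu toc33 light against 129, 132 and 131 TPM in flu toc33 dark, a log2 change of 1.69 ± 0.0275 (SE; limma, adjusted p = 2.61e-15), against 0.26 in flu. FBA6, a cytosolic aldolase, rose by 1.56, and GAPC1, a cytosolic glyceraldehyde phosphate dehydrogenase, by 1.38 in flu toc33 and by 0.54 in flu. The cytosolic fructose bisphosphatase fell by 0.20 in flu toc33, where the plastid FBPase rose by 0.11. The median of these 8 genes was 0.92 in flu toc33 and 0.16 in flu, against 0.072 and -0.037 for all genes tested.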

How the data were processed

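RNA-seq of 12 libraries, 3 in each of 4 groups by the sample titles, was read from a table of 48359 transcripts. Its values are TPM deposited by the authors, 1 column per library, and each column sums to 1000000. The tools were kallisto 0.46.2 and sleuth 0.30.0 with the build TAIR10, per the submitters' processing notes. The transcript set that was indexed is, like any filter or strand setting, not given in the sources used here. TPM from kallisto divides reads among similar transcripts by estimation, so the split between near-identical genes is less certain than their total, and TPM keeps no read depth, so a change is relative to the rest of the library.

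Transcripts were added up per locus with pandas 2.3.3 and numpy 2.4.6 in Python 3.11.15, which gave 27655 genes, and no 2 columns were identical. Genes with at least 1 TPM in at least 3 libraries, 19667 in all, were tested as log2(TPM + 1) with limma 3.58.1 in R 4.3.3, in a linear model of 4 group means with moderated, mean-dependent variances and Benjamini-Hochberg adjustment over all genes tested, and a gene was called at an adjusted p under 0.05. Fold changes on this scale understate the change of low genes. The 28938 transcripts past the same filter were fitted likewise. Intervals are 95% confidence intervals without adjustment. The fit was tested on simulated data. Figures were drawn with matplotlib 3.10.9.

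Symbols and neighbours came from the RefSeq annotation of TAIR10.1, which held all 32 loci, and no coordinates of it are given. The genes and the lists of related and marker genes were chosen with earlier results of these data known, so counts over them are descriptions. All 32 genes may be named. Full values are given for the RBCS genes, RCA and, in each comparison and pathway, up to 3 called genes with the largest change in each direction. From each further list up to 3 called genes in each direction may be named, and transcripts where at least 2 reached 10% of their locus in some group. One result on a further list is not reported here. Each result was refitted with other pseudocounts, filters and scalings, with organelle genes removed, with a replicate block, with a robust estimate of the spread, on only the groups compared, and without each library in turn.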

Additional observations from a re-analysis of the deposited data

Results flagged for a closer look

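The light response differed between flu toc33 and flu, by the interaction term of the fit, for 21 of the 32 genes. Values are the log2 change in flu toc33 minus that in flu. In the Calvin cycle the difference was positive for RPI (0.38), FBA1 (0.30), RBCS1B (0.22), FBPase (0.18), SBPASE (0.17) and RCA (0.13). It was negative for RBCS2B (-0.97), CP12-1 (-0.53), GAPA-1 (-0.41), CP12-2 (-0.39), PRK (-0.33), GAPA-2 (-0.31) and RPE (-0.30). In photorespiration it was positive for GLDP1 (0.51) and GLDP2 (0.28), and negative for GLYK (-0.68), AGT1 (-0.60), GGT1 (-0.37), GOX2 (-0.32), HPR1 (-0.24) and SHM1 (-0.22). CP12-2 was the one gene called in opposite directions, at -0.25 in flu toc33 and 0.13 in flu. Over all genes tested 56.7% were called in this comparison.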

How the results depend on the processing

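Over 3488 refits of single genes, 3295 kept a call with its direction or stayed without a call. A further 132 lost a call, 46 gained one, and 15 changed direction with a call before or after the refit. Genes without a call before and after the refit count as kept, also where the sign of their change differed. Under quantile normalization the light response was 0.15 for GAPB in flu toc33 and, in flu, 0.076 for RBCS2B, 0.21 for RBCS3B, 0.0040 for GOX1, 0.15 for GGT1, 0.078 for SHM1 and 0.0035 for HPR1, and flu toc33 against flu was 0.15 for RBCS1A, 0.079 for RBCS2B and -0.089 for FBPase in the dark and -0.022 for PRK, -0.15 for GOX2 and -0.074 for HPR1 in the light. Median-ratio scaling gave -0.0094 for GAPB and -0.011 for HPR1 in the light. In flu light against flu dark, 5 Calvin cycle genes were called with no filter and 5 on only the groups compared, in place of 9, and 4 photorespiration genes with median-ratio scaling and 4 on only the groups compared, in place of 7. The causes were not tested.

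The Calvin cycle median was -0.095 with quantile normalization and -0.21 with median-ratio scaling for the light response in flu toc33, 0.076 and -0.017 for that in flu, 0 and -0.0094 for flu toc33 against flu in the light, and -0.11 and -0.17 for the difference of the light responses. The photorespiration median was -0.32 with median-ratio scaling for the light response in flu toc33, 0.0035 and -0.060 with these scalings for that in flu, 0.25 with quantile normalization in the dark, -0.054 and -0.032 in the light, and -0.34 and -0.33 for the difference. Median-ratio scaling gave sums of 45479 in flu toc33 light and 53125 in flu light for the Calvin cycle and of 8775 in flu toc33 light and 9200.0 in flu light for photorespiration, so that photorespiration was lower in flu toc33 light than in flu light; removing organelle genes gave 8955 in flu light.

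Leaving out each library gave 17 to 19 Calvin cycle and 8 to 10 photorespiration calls for the light response in flu toc33 (medians -0.14 to -0.12 and -0.26 to -0.23), 7 to 12 and 5 to 7 in flu (-0.057 to -0.018 and -0.11 to -0.064), 13 to 16 and 10 to 11 for flu toc33 against flu in the dark (0.076 to 0.14 and 0.27 to 0.33), 19 to 20 and 9 to 9 in the light (0.085 to 0.12 and 0.030 to 0.10), and 12 to 18 and 7 to 10 for the difference (-0.082 to -0.039 and -0.25 to -0.22). Groups share replicate numbers, but deviations of same-numbered libraries from their group means correlated at -0.0847 to 0.0235. Only flu light replicate 2, set against the flu toc33 light libraries, correlated best with its own number (0.0235), so the numbers were not taken to pair libraries. The replicate block gave 8 Calvin cycle and 6 photorespiration calls in flu and 19 Calvin cycle calls in the light, and the same counts as without it elsewhere. Depth is unknown, so no limit of detection can be given.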
